A study of Mus musculus with 30 samples.

Results

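The 8 genes described here are a fixed set of Wnt pathway factors and targets: the transcription factor genes Lef1, Tcf7 and Tcf7l1, and the target or feedback genes Axin2, Sp5, Cdx1, Nkd1 and Notum. They were picked by name, with earlier results of these data known, out of 52630 genes in a table of counts from a time course and 55487 genes in a table from a long-term culture experiment. All 8 were listed in both tables and all 8 had enough counts to be tested in both. The cells were E14tg2a mouse embryonic stem cells (ESCs), an established cell line, so all groups shared 1 genetic background, and the labels name no engineered allele. In the time course, the Serum/LIF libraries are labelled 0 h, while the treatment notes speak of 24 h in Serum/LIF, so which of these the control was could not be settled and each difference over time is from that control. The cells moved to Enhanced Metabolic Media (EMM) were sampled after 3, 9 and 24 h. EMM is Serum/LIF in which D-galactose replaces D-glucose and pyruvate. In the long-term experiment the cells were kept for 10 passages (P10) or 20 passages (P20) in Serum/LIF, EMM or 2i/LIF. Each of the 4 time-course groups and each of the 6 passage groups had 3 libraries, 30 in all, and the study describes them as coming from independent experiments.

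Canonical Wnt signaling works through β-catenin, which a destruction complex containing the kinase GSK3 marks for degradation. When GSK3 is held back, β-catenin accumulates, enters the nucleus and binds TCF/LEF proteins at target genes. In mouse ESCs, TCF7L1 (also called TCF3) acts mainly as a repressor of genes of the pluripotency network, TCF7 and LEF1 act mainly as activators, and relief of TCF7L1 repression by the GSK3 inhibitor CHIR99021 is a classical feature of 2i culture. 2i/LIF usually combines this inhibitor with an inhibitor of MEK and with LIF in a serum-free base. The study's methods give this composition for another assay, and it was taken here to be that of the passage libraries. GSK3 inhibition, MEK inhibition and the absence of serum would then always have come together, and their parts in any difference between 2i/LIF and the other media cannot be told apart. Nor can fewer cells that use a gene be told apart from less of its RNA per cell in bulk libraries.

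On mouse build GRCm38, Lef1 lies at chr3:131110471-131224356, Tcf7 at chr11:52252371-52283014, Tcf7l1 at chr6:72626378-72789254, Axin2 at chr11:108920349-108950783, Sp5 at chr2:70474923-70477729, Nkd1 at chr8:88521354-88594884 and Notum at chr11:120653788-120661175. The core of the TCF/LEF site is CTTTGAT or CTTTGAA. Both forms were searched on both strands in the 250 bases before each RefSeq start site on GRCm38.p6. Of the 8 genes, 6 had windows that were searched, 10 windows in all, and 1 window held a match, that of Sp5. Among all 32851 such windows, 3.21% held CTTTGAT, 4.46% held CTTTGAA and 7.48% held either. The windows of Sp5 (chr2:70474673-70474922, plus strand) and of Axin2 (chr11:108920099-108920348, plus strand), are shown because Sp5 had the widest range of levels between media and Axin2 is the feedback gene most used as a readout of the pathway. They run 5′ to 3′, with the match in capitals, which starts at -104 from the start site of Sp5.
Sp5: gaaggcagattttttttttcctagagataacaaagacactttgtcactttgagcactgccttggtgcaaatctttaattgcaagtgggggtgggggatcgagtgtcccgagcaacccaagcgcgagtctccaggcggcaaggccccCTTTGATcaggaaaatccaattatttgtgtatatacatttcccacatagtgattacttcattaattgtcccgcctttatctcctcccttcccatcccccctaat
Axin2: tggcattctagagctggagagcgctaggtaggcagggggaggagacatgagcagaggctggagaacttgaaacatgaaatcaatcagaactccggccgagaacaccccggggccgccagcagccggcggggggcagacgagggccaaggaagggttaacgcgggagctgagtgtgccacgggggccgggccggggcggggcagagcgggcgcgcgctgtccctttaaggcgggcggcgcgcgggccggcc
The match is a description of letters in this window. No binding was measured at it in the data used here, and the windows without a match say nothing about sites elsewhere in those genes.

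Totals per library ran from 24074132 to 35301962 counts in the time course and from 6944904 to 27912928 in the passage experiment. All 6 ESC markers were present in every group. In the passage libraries, fibroblast or feeder markers were far lower outside Serum/LIF: their summed level was 2225 to 2658 normalised counts at P10 and 3572 to 7104 at P20 in Serum/LIF, 142 to 364 in EMM and 45.0 to 90.9 in 2i/LIF, with Postn at 0 in EMM. In the same libraries trophoblast markers summed to 3610 to 7294 in Serum/LIF, 673 to 1405 in EMM and 969 to 2335 in 2i/LIF. Neural markers summed to 1798 to 2062 in P10 Serum/LIF, 295 to 376 in P10 EMM and 311 to 592 in P10 2i/LIF, and at P20 to 739 to 845, 585 to 665 and 874 to 1288 in the same order. Primitive endoderm markers were at 172 to 226 in P10 Serum/LIF, 109 to 125 in P10 EMM and 91.5 to 103 in P10 2i/LIF, and at P20 at 226 to 315, 224 to 345 and 77.5 to 136. In the time course, from Serum/LIF to 24 h in EMM, the summed trophoblast markers went from 3592 to 3848 up to 5918 to 6005, those of primitive endoderm from 408 to 443 up to 739 to 752, and those of fibroblasts or feeders from 1799 to 1888 down to 1251 to 1473. The neural sum went from 1695 to 2086 up to 2841 to 3152 at 3 h and was 2077 to 2585 at 24 h. That of primitive streak and mesoderm was 790 to 832 in Serum/LIF, 705 to 766 at 3 h, 809 to 910 at 9 h and 649 to 713 at 24 h. The part of such cells in the differences between media and times was not tested. In the P20 2i/LIF group, replicate 1 had the lowest total of all and gave 3.95% of its counts to the single gene CT010467.1, against 0.51% to 1.54% in the other passage libraries. Mitochondrial genes took 0.986% to 1.23% of counts in P10 Serum/LIF against 2.16% to 2.24% at P20, 0.848% to 1.88% in P10 EMM against 2.26% to 2.54% at P20, and 1.64% to 1.92% in the time-course Serum/LIF libraries against 1.97% to 2.25% in EMM. In 2i/LIF replicate 1 was the lowest at each passage, at 1.47% against 3.35% and 3.39% at P10 and 1.04% against 2.28% and 2.75% at P20. The part of these shares in the differences between passages was not tested. In the P10 Serum/LIF group, replicate 3 had the lowest Sp5, Axin2 and Cdx1 of its group, together with the lowest T, the brachyury gene of the primitive streak and itself a Wnt target (212 normalised counts against 698 and 597). Genes on chromosomes 6 and 8 were shifted upwards in P20 2i/LIF, with median log2 fold changes against Serum/LIF of 0.33 over 746 genes and 0.45 over 833 genes, while the medians of the other chromosomes lay between -0.18 and 0.08. Tcf7l1 is on chromosome 6 and Nkd1 on chromosome 8.

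Levels are given as normalised counts, which are counts scaled by each library's effective size. A gene passed the test when its adjusted p from edgeR's quasi-likelihood fit over all genes was under 0.01, and was called when it also had an absolute log2 fold change over 1.

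The first question was how the Wnt genes stood in 2i/LIF, taken to hold the GSK3 inhibitor, against Serum/LIF. At P10, Axin2, Sp5, Cdx1 and Notum were called higher in 2i/LIF, by 6.15-fold to 9.86-fold, and Lef1 and Tcf7 rose by less than 2-fold. None of the 8 genes was lower past the test. Thus 4 of 8 were called and 6 of 8 passed, all of them higher, where 26.4% of the 16054 genes tested were called in either direction (11.6% higher). The median log2 fold change over the 8 genes was 1.74, against 0.02 over all genes tested. At P20, Axin2 and Sp5 were still called higher but Lef1 was called lower, by 7.26-fold. There 3 of 8 were called, where 22.3% of all genes were (6.77% higher and 15.5% lower), and the median over the 8 genes was 0.50.

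Axin2 encodes a scaffold of the destruction complex and is a general feedback target of the pathway. Its normalised counts at P10 were 462, 424 and 244 in Serum/LIF, 215, 210 and 156 in EMM, and 3257, 4151 and 3782 in 2i/LIF. Every 2i/LIF library lay far above every other, and every Serum/LIF library lay above every EMM library. The rise in 2i/LIF over Serum/LIF was 9.86-fold (log2 fold change 3.30 ± 0.18, SE; adjusted p = 4.59e-11 in edgeR), from a mean of 377 ± 116 to 3730 ± 449 (SD, n = 3). Against EMM it was 18.9-fold (4.24 ± 0.20, adjusted p = 5.67e-12). At P20 the counts were 411, 419 and 521 in Serum/LIF, 197, 219 and 176 in EMM, and 1238, 1578 and 1569 in 2i/LIF. The order of the 3 media was unchanged and no groups overlapped, but the distance of 2i/LIF from Serum/LIF had shrunk to 3.27-fold (1.71 ± 0.18, adjusted p = 2.03e-07). Without replicate 3 of P10 Serum/LIF, the P10 log2 fold change was 3.08.

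Sp5, a zinc-finger factor gene that Wnt signaling switches on directly, had the widest range of the set. At P10 it was at 426, 393 and 130 normalised counts in Serum/LIF and at 2354, 2467 and 2345 in 2i/LIF. In EMM the raw counts were 3, 2 and 0. All 3 EMM libraries were thus at or under the floor of 3 counts per library, so only bounds can be given: Sp5 was at least 68.0-fold lower in EMM than in Serum/LIF and at least 513-fold higher in 2i/LIF than in EMM. The rise in 2i/LIF over Serum/LIF was 7.5-fold (2.91 ± 0.26, adjusted p = 2.47e-08), and 2.55 on the log2 scale without replicate 3 of Serum/LIF. At P20 the levels were 165, 145 and 133 in Serum/LIF, 22.3, 12.3 and 10.9 in EMM, and 482, 430.0 and 492 in 2i/LIF. The 3 media again fell in the same order with no overlap, at 3.16-fold between 2i/LIF and Serum/LIF (1.66 ± 0.27, adjusted p = 5.26e-05) and 31.9-fold between 2i/LIF and EMM (4.99 ± 0.36, adjusted p = 1.17e-09).

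Cdx1, a caudal-type homeobox gene on chromosome 18 and a direct Wnt target, stood at 54.0, 48.6 and 25.5 in P10 Serum/LIF, 27.3, 21.8 and 41.2 in P10 EMM and 471, 392 and 414 in P10 2i/LIF. The Serum/LIF and EMM libraries overlapped, and the 2i/LIF libraries stood above both, 9.83-fold over Serum/LIF (3.30 ± 0.24, adjusted p = 1.83e-09), or 3.05 on the log2 scale without replicate 3 of Serum/LIF. At P20 it was at 111, 105 and 149 in Serum/LIF, 8.37, 14.0 and 9.43 in EMM and 289, 185 and 237 in 2i/LIF. The groups were then fully separate. Cdx1 remained higher in 2i/LIF than in Serum/LIF at P20 (1.93-fold, 0.95 ± 0.22, adjusted p = 0.0014), a change that passed the test but was under the fold threshold. When chromosomes 6 and 8 were left out of the scaling its log2 fold change was 1.03 and it was called, making 4 calls, and without replicate 2 of P20 Serum/LIF it no longer passed (0.85, adjusted p = 0.0111).

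Notum encodes a secreted deacylase that inactivates Wnt ligands, and it is a feedback target. Its levels at P10 were 289, 222 and 207 in Serum/LIF, 775, 804 and 999 in EMM, and 1469, 1367 and 1589 in 2i/LIF. It was the only one of the 8 genes called higher in both EMM and 2i/LIF than in Serum/LIF at P10, by 3.56-fold and 6.15-fold (adjusted p = 3.82e-08 and 1.55e-10). At P20 the levels were 399, 296 and 275 in Serum/LIF, 332, 375 and 362 in EMM, and 442, 546 and 379 in 2i/LIF. Both other media overlapped Serum/LIF then, and the log2 fold changes were 0.14 for EMM (95% interval -0.19 to 0.47) and 0.50 for 2i/LIF (0.17 to 0.83, adjusted p = 0.0117). The 2i/LIF difference passed in DESeq2 (0.00901), with no count filter (0.000375) and with chromosomes 6 and 8 left out of the scaling (0.00407). It also passed without replicate 3 of P20 2i/LIF (0.00393) or replicate 1 of P20 Serum/LIF (0.0022). Notum overlaps an antisense gene, Notumos, which had at most 30 counts in a passage library and 141 in a time-course library.

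Nkd1, which encodes an inhibitor of Dishevelled, had few counts. It was at 39.5, 64.5 and 55.5 in P10 Serum/LIF, 27.3, 12.5 and 18.3 in P10 EMM and 83.2, 69.7 and 47.2 in P10 2i/LIF. The 2i/LIF and Serum/LIF libraries overlapped (log2 fold change 0.31, 95% interval -0.31 to 0.92), whereas EMM lay below both, 2.6-fold under Serum/LIF (adjusted p = 0.00195). That call was lost without replicate 2 of P10 EMM (adjusted p = 0.0143) or replicate 2 of P10 Serum/LIF (0.0122). At P20 the counts were 45.2, 38.6 and 40.0 in Serum/LIF, 41.9, 40.3 and 37.7 in EMM, and 11.7, 31.0 and 28.7 in 2i/LIF. All 2i/LIF libraries were below the rest, but the log2 fold change against Serum/LIF of -0.68 (95% interval -1.34 to -0.02) did not pass (adjusted p = 0.076).

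**Figure D1:**
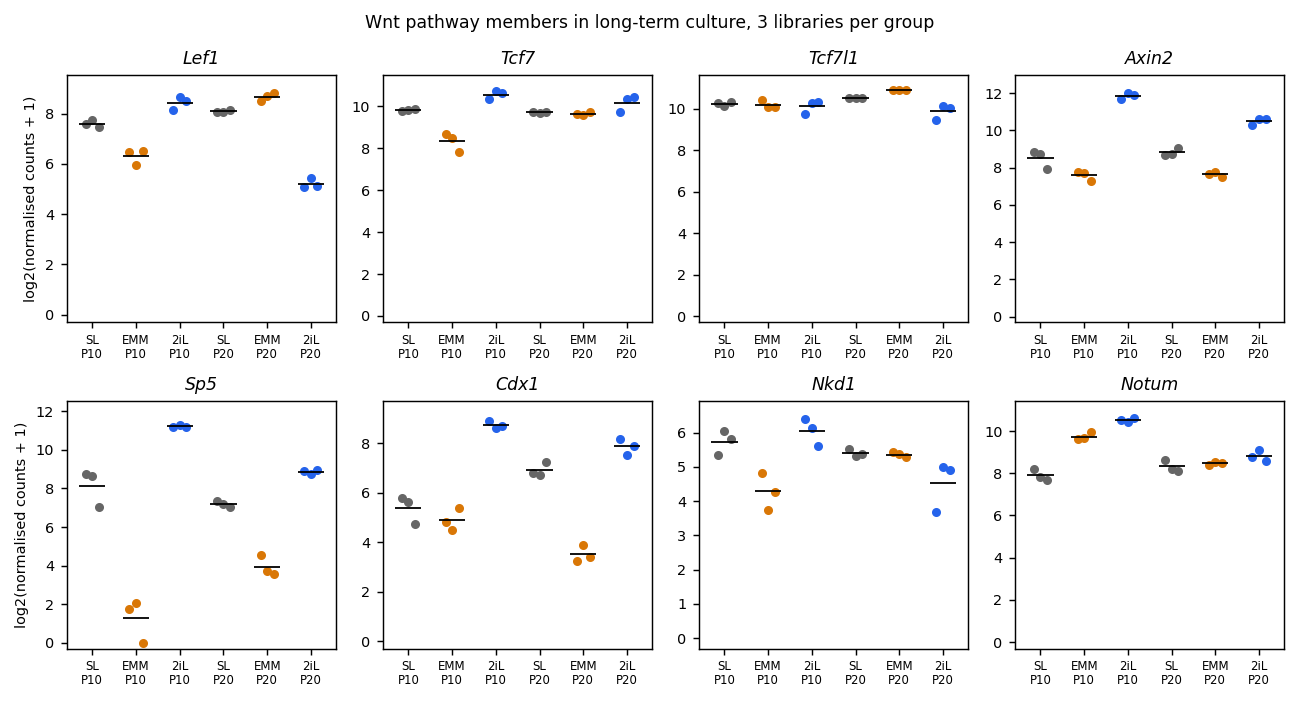
Level of each of the 8 genes in the passage experiment as log2(normalised counts + 1), with 3 dots per group for the libraries and a bar at their mean, for Serum/LIF, EMM and 2i/LIF at P10 and P20. Axin2, Sp5 and Cdx1 were highest in 2i/LIF at both passages, Sp5 was at or under 3 counts in P10 EMM, and Lef1 was high in P10 2i/LIF (279 to 399 normalised counts) but lowest in P20 2i/LIF (32.9 to 42.9).

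Tcf7l1, the repressor among the TCF/LEF genes, passed no test between media at P10. Its normalised counts at P10 were 1216, 1108 and 1283 in Serum/LIF, 1347, 1066 and 1058 in EMM, and 844, 1250 and 1254 in 2i/LIF. All 3 groups overlapped, and the interval of the log2 fold change between 2i/LIF and Serum/LIF ran from -0.41 to 0.21. At P20 it was at 1450, 1439 and 1465 in Serum/LIF, 1887, 1907 and 1918 in EMM, and 703, 1101 and 1053 in 2i/LIF. The P20 groups did not overlap: EMM was highest, with a log2 fold change over Serum/LIF of 0.39 that did not pass (adjusted p = 0.0397), and 2i/LIF was lowest, at 1.51-fold under Serum/LIF (-0.59 ± 0.15, adjusted p = 0.00247) and 1.98-fold under EMM (-0.98 ± 0.15, adjusted p = 1.58e-05). Without replicate 1 of P20 2i/LIF the difference from Serum/LIF was -0.43 (adjusted p = 0.01) and no longer passed. With chromosomes 6 and 8 left out of the scaling it was -0.50 (adjusted p = 0.00584), and the part of the chromosome 6 shift in it was not tested.

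Tcf7, an activator of the family, was at 866, 922 and 945 in P10 Serum/LIF, 407, 363 and 222 in P10 EMM, and 1286, 1688 and 1579 in P10 2i/LIF. No groups overlapped. It rose 1.67-fold in 2i/LIF over Serum/LIF (0.74 ± 0.17, adjusted p = 0.000788) and fell 2.68-fold in EMM (-1.42 ± 0.18, adjusted p = 2.83e-06). At P20 Tcf7 was at 862, 817 and 855 in Serum/LIF, 785, 772 and 839 in EMM and 851, 1323 and 1388 in 2i/LIF. Replicate 1 of 2i/LIF sat among the Serum/LIF libraries while the other 2i/LIF libraries lay above them. The log2 fold change of 2i/LIF over Serum/LIF was 0.51 (95% interval 0.16 to 0.85, adjusted p = 0.0146), and 0.69 without that library (adjusted p = 0.000485). It also passed with chromosomes 6 and 8 left out of the scaling (0.59, adjusted p = 0.00445) and with no count filter (adjusted p = 2.97e-05). For EMM against Serum/LIF the P20 interval ran from -0.43 to 0.27.

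Lef1, the other activator, changed sides with passage. At P10 it was at 190.0, 212 and 175 in Serum/LIF, 86.8, 60.8 and 89.3 in EMM, and 279, 399 and 367 in 2i/LIF. The order was 2i/LIF, Serum/LIF, EMM, with no overlap, at 1.81-fold between 2i/LIF and Serum/LIF (0.86 ± 0.15, adjusted p = 5.33e-05) and 2.43-fold between Serum/LIF and EMM (adjusted p = 4.32e-06). At P20 the levels were 269, 264 and 285 in Serum/LIF, 366, 415 and 453 in EMM, and 32.9, 42.9 and 33.5 in 2i/LIF. The order was fully turned round, again with no overlap. Lef1 in P20 2i/LIF was 7.26-fold under Serum/LIF (-2.86 ± 0.18, adjusted p = 2.26e-10) and further under EMM (-3.46 ± 0.17, adjusted p = 1.05e-11). EMM was 1.51-fold over Serum/LIF (adjusted p = 0.00248), a result that missed the threshold when any of 4 P20 libraries was left out (adjusted p = 0.0108 to 0.0177).

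Per length of exon the family was uneven. On the RPKM scale (reads per kilobase of exon, scaled to library size), P10 Serum/LIF held 22.2 ± 0.992 of Tcf7 and 19.6 ± 1.44 of Tcf7l1, against 1.40 ± 0.138 of Lef1 and 1.23 ± 0.115 of Tcf7l2 (SD, n = 3). Tcf7l2, the remaining family gene, was not among the 8 and is given only to complete the comparison. Tcf7 was above Tcf7l1 in mean level in P10 2i/LIF (37.0 ± 5.08 and 18.2 ± 3.85) and P20 2i/LIF (29.0 ± 7.16 and 15.5 ± 3.55), and below it in P10 EMM (8.08 ± 2.36 and 18.9 ± 2.69) and P20 EMM (19.5 ± 0.869 and 31.1 ± 0.26). In the time course Tcf7l1 was the higher of the pair in every group. In the passage experiment Lef1 was lowest in P20 2i/LIF, at 0.266 ± 0.0407, and highest in P20 EMM, at 3.00 ± 0.321. The normalised counts of Tcf7l2 rose in P10 2i/LIF over P10 Serum/LIF by 0.46 on the log2 scale (adjusted p = 0.00844), and the P20 value was 0.03 (adjusted p = 0.894).

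**Figure D2:**
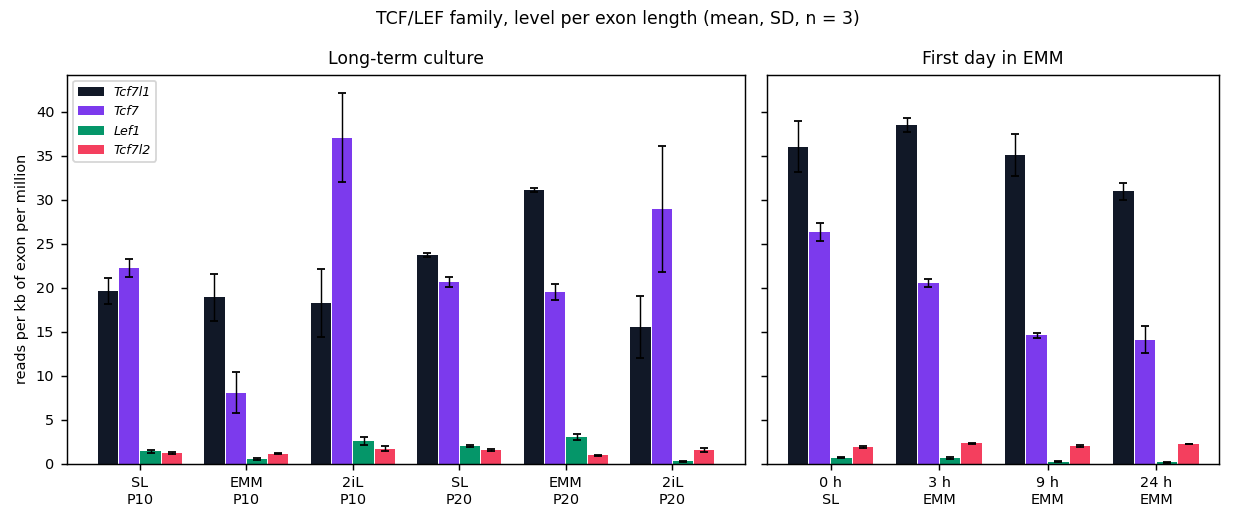
Level of the 4 TCF/LEF genes in reads per kilobase of exon scaled to library size (RPKM), mean with SD over 3 libraries, in each group of the passage experiment and the time course. Tcf7 and Tcf7l1 make up most of the family in every group, and Lef1 had its lowest passage level in P20 2i/LIF (0.266) and its highest in P20 EMM (3.00).

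The next comparison set 2i/LIF against EMM. At P10, 6 of 8 genes were called higher in 2i/LIF than in EMM and none lower, where 22.1% of all genes were called (11% higher). They were Axin2, Sp5, Cdx1 (14.7-fold), Tcf7 (4.47-fold), Lef1 (4.41-fold) and Nkd1 (3.21-fold). With Notum, which passed at 1.73-fold, 7 of 8 passed where 45.1% of all genes did, and Tcf7l1 had an interval from -0.37 to 0.26 on the log2 scale. At P20, Axin2 (7.41-fold), Sp5 and Cdx1 (21.1-fold) were called higher and Lef1 lower, 4 of 8 genes where 25.3% of all genes were called (9.39% higher and 16% lower).

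EMM against Serum/LIF used no GSK3 inhibitor in either arm. At P10, 4 of 8 genes were called lower in EMM (Sp5, Tcf7, Nkd1 and Lef1) and 1 higher (Notum), where 17.1% of all genes were called (10.5% lower and 6.67% higher). Axin2 passed at 1.91-fold lower (-0.94 ± 0.20, adjusted p = 0.000707), so that 6 of 8 passed, 1 higher and 5 lower, where 37.4% of all genes passed (18.7% higher and 18.7% lower). Without replicate 3 of P10 Serum/LIF Axin2 was at -1.16 and called, for 6 calls in all. Cdx1 was at -0.58 (95% interval -1.21 to 0.05). At P20, 3 of 8 were called lower, where 9.63% of all genes were called (3.44% higher and 6.19% lower): Cdx1 by 10.9-fold (-3.45 ± 0.29, adjusted p = 5.66e-08), Sp5 by 10.1-fold (-3.34 ± 0.38, adjusted p = 2.51e-06) and Axin2 by 2.26-fold (-1.18 ± 0.19, adjusted p = 7.27e-05). All 4 comparisons against Serum/LIF use the Serum/LIF libraries of their passage, so the EMM and 2i/LIF values of a passage are not independent of each other.

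T, like Sp5, was lower in EMM than in Serum/LIF at both passages, but in 2i/LIF at P20 T lay below Serum/LIF while Sp5 lay above it. The normalised counts of T were 2.41, 6.23 and 2.29 in P10 EMM and 33.5, 19.02 and 18.1 in P20 EMM, against 272, 256 and 257 in P20 Serum/LIF. In 2i/LIF they were 768, 880 and 654 at P10 and 110, 118 and 92.0 at P20. The summed level of the 8 markers of primitive streak and mesoderm was 361 to 1017 in P10 Serum/LIF, 153 to 198 in P10 EMM and 779 to 1053 in P10 2i/LIF. At P20 it was 499 to 503 in Serum/LIF, 177 to 181 in EMM and 336 to 454 in 2i/LIF. Foxa2 and Mesp1 were at 0 in P10 2i/LIF, and Mesp1 also in P20 2i/LIF. The part of such cells in the levels of Sp5, Axin2 and Cdx1 was not tested.

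**Figure D3:**
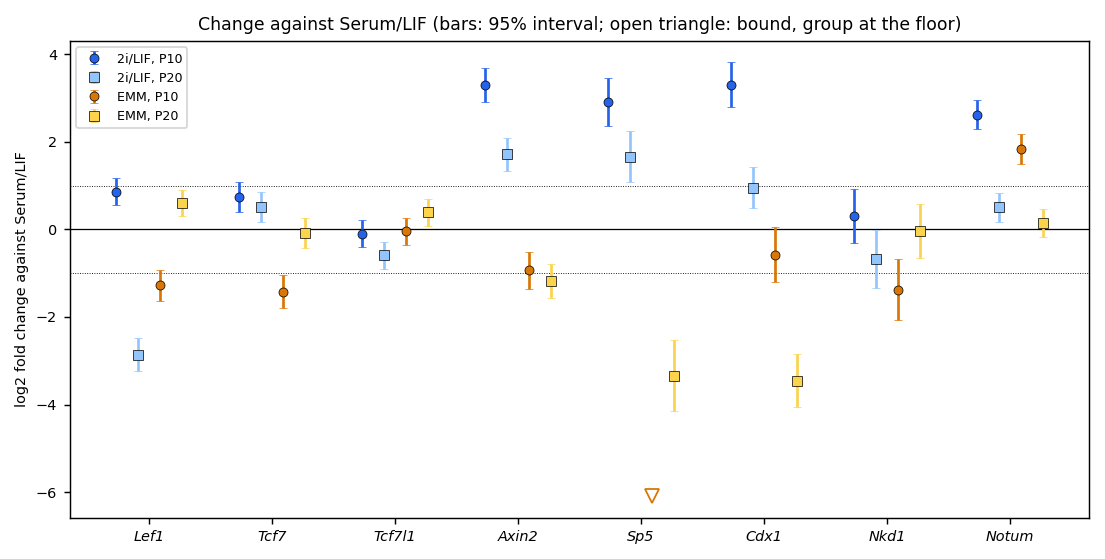
Log2 fold change of each of the 8 genes in EMM and 2i/LIF against Serum/LIF of the same passage, with 95% intervals and dotted lines at -1 and 1. The open triangle is the bound for Sp5 in P10 EMM (at least 68.0-fold lower), and Lef1 in 2i/LIF lies above 0 at P10 (0.86) and below it at P20 (-2.86).

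Between P10 and P20 in 2i/LIF, 5 of 8 genes were called lower and none higher, where 10.1% of all genes were called (6.59% lower): Lef1 fell 9.31-fold (-3.22 ± 0.18, adjusted p = 4.74e-10), Sp5 5.12-fold (-2.36 ± 0.26, adjusted p = 1.52e-06), Notum 3.22-fold, Nkd1 2.55-fold and Axin2 2.54-fold. The Nkd1 call was lost with only the compared groups in the fit (-1.36, adjusted p = 0.0271). Cdx1 passed at 1.82-fold lower. That pass was lost without replicate 1 of P10 2i/LIF or replicate 2 or 3 of P20 2i/LIF (adjusted p = 0.0105 to 0.023), and without replicate 1 of P20 2i/LIF it became a call (-1.02, adjusted p = 0.00169). Without that library the log2 fold changes of the called genes were -3.18 for Lef1, -2.38 for Sp5, -1.67 for Notum, -1.14 for Nkd1 and -1.25 for Axin2, and against Serum/LIF at P20 they were -2.81 for Lef1, 1.81 for Axin2, 1.64 for Sp5 and 0.80 for Cdx1, with Nkd1 at -0.46 (adjusted p = 0.216). For Tcf7 and Tcf7l1 the intervals on the log2 scale ran from -0.69 to 0.00 and from -0.53 to 0.10. In Serum/LIF over the same passages 1 of 8 was called, Cdx1, 2.79-fold higher (adjusted p = 0.000711), where 1.84% of all genes were called (1.17% higher and 0.673% lower) and 6.01% passed (2.85% lower). Sp5 in Serum/LIF had a log2 fold change of -1.11 (adjusted p = 0.012), and without replicate 3 of P10 Serum/LIF it was -1.47 and called (adjusted p = 1.27e-05), which made 2 calls. In EMM 4 of 8 were called, where 8.54% of all genes were (5.59% higher and 2.95% lower): Lef1 rose 5.19-fold (2.38 ± 0.16, adjusted p = 7.34e-09) and Tcf7 2.35-fold, while Cdx1 fell 2.62-fold and Notum 2.39-fold. The Cdx1 call in EMM was lost without any of 4 libraries, replicates 1 and 3 of P10 EMM and of P20 EMM (adjusted p = 0.0134 to 0.0213). Sp5 in EMM went from 3, 2 and 0 raw counts at P10, at the floor, to 24, 22 and 15 at P20, at least 3.26-fold higher and with no overlap. It did not pass (adjusted p = 0.0324), but was called with only the compared groups in the fit (adjusted p = 0.00509), with no count filter (1.25e-06) and in DESeq2 (0.00129). Axin2 in EMM had a log2 fold change of 0.00 (95% interval -0.42 to 0.43). Each group was 1 set of 3 libraries, and passage number cannot be told apart from whatever else changed in a culture over the time.

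The effect of a medium at P20 was set against its effect at P10 by an interaction term. For 2i/LIF against Serum/LIF the difference passed for 4 of 8 genes, where it passed for 20% of all genes. The log2 fold change was lower at P20 by 3.72 for Lef1 (-3.72 ± 0.23, adjusted p = 8.52e-09), and the differences were -2.35 ± 0.33 for Cdx1, -2.12 ± 0.22 for Notum and -1.59 ± 0.25 for Axin2. Sp5, at -1.25 (95% interval -2.03 to -0.47), had an adjusted p of 0.0151, and without replicate 3 of P10 Serum/LIF it passed at -0.89 (adjusted p = 0.00254). For EMM against Serum/LIF it passed for 5 of 8, where 14.7% of all genes passed: Lef1 1.88 ± 0.22 and Tcf7 1.34 ± 0.24 were higher at P20, and so was Sp5, whose P10 EMM libraries were at the floor, while Cdx1 (-2.87 ± 0.43) and Notum (-1.69 ± 0.22) were lower. Axin2, with -0.24 (95% interval -0.81 to 0.33), did not differ detectably between passages in its response to EMM.

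The time course followed the first day in EMM. At 3 h, 3 of 8 genes passed, all lower, and none was called, where 34.5% of all genes passed and 4.22% were called. Over the day Lef1 and Cdx1 moved in opposite directions, Axin2 fell and came back, and Tcf7 settled lower. At 9 h, 1 of 8 was called (Lef1, lower) where 5.55% of all genes were called, and 4 of 8 passed where 38.2% did. The Axin2 pass among them (-0.31, adjusted p = 0.00249) was lost without any of 4 libraries (0.0107 to 0.0221). By 24 h, Lef1 and Cdx1 were called, 2 of 8 where 8.18% of all genes were called (3.5% higher and 4.69% lower), and 4 of 8 passed where 44% did.

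Axin2 was at 516, 484 and 459 normalised counts in Serum/LIF, 235, 261 and 243 at 3 h, 361, 426 and 386 at 9 h and 504, 461 and 499.5 at 24 h. The 3 h libraries were lowest, the 9 h libraries lay between, and the 24 h libraries were back within the range of Serum/LIF. The fall at 3 h was 1.97-fold (-0.98 ± 0.08, adjusted p = 1.09e-07), just short of the fold threshold. It rose again 1.59-fold from 3 to 9 h (adjusted p = 1.09e-05) and 1.25-fold from 9 to 24 h (adjusted p = 0.00556). The last step did not pass with only the compared groups in the fit (0.0189) or without any of 4 libraries (0.0171 to 0.0336). At 24 h the difference from Serum/LIF was 0.01 (95% interval -0.15 to 0.16). Axin2 was called at 3 h without replicate 3 of Serum/LIF or replicate 2 of the 3 h group. In the passage experiment Axin2 was lower in EMM than in Serum/LIF at both passages, but the tables were normalised separately and no test was made across them.

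Lef1 had 194, 193 and 153 normalised counts in Serum/LIF, 167, 183 and 149 at 3 h, 73.6, 51.2 and 62.2 at 9 h, and 42.5, 35.6 and 29.8 at 24 h. The 3 h libraries overlapped Serum/LIF, and the 9 and 24 h libraries were below all earlier ones. It fell 2.88-fold by 9 h (-1.53 ± 0.15, adjusted p = 7.59e-07) and 4.98-fold by 24 h (-2.32 ± 0.16, adjusted p = 2.05e-08). Tcf7 was at 2084, 2097 and 1947 in Serum/LIF, 1620, 1601 and 1556 at 3 h, 1104, 1148 and 1139 at 9 h, and 1203, 1106 and 967 at 24 h. It was lower than Serum/LIF at every time with no overlap, by 1.28-fold, 1.81-fold and 1.87-fold (adjusted p = 0.000207, 4.43e-08 and 1.64e-08). Tcf7l1 was at 4436, 4295 and 3801 in Serum/LIF, 4516, 4516 and 4359 at 3 h, 4170, 4288 and 3757 at 9 h, and 3715, 3536 and 3518 at 24 h. It passed at 24 h alone, 1.16-fold lower (-0.22 ± 0.06, adjusted p = 0.00438), and this was lost with only the compared groups in the fit (0.011), with the description number as a block (-0.14, adjusted p = 0.0387) or without any of 4 libraries (0.0229 to 0.0351). It was the TCF/LEF gene of the set with the narrowest range over the day.

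Cdx1 was at 90.8, 125 and 147 in Serum/LIF, 84.4, 92.0 and 75.1 at 3 h, 142, 161 and 134 at 9 h, and 421.5, 416 and 391 at 24 h. The 24 h libraries stood above all others. Cdx1 was 1.45-fold lower at 3 h (adjusted p = 0.00798, with overlapping groups), a pass lost with only the compared groups in the fit (0.022) or without any of 5 of the 6 libraries (0.0107 to 0.052). It had a difference of 0.26 at 9 h (95% interval -0.03 to 0.56), and was 3.37-fold higher at 24 h (1.75 ± 0.12, adjusted p = 2.11e-08). In the other experiment, normalised separately, Cdx1 was lower in EMM at P20. Sp5 was at 251, 240 and 222 in Serum/LIF, 269, 264 and 266 at 3 h, 276, 320.3 and 310 at 9 h, and 269, 239 and 224 at 24 h. It was 1.27-fold higher at 9 h (adjusted p = 0.00314), a pass lost without replicate 3 of Serum/LIF (0.0128) or replicate 2 of the 9 h group (0.0173), and its 24 h difference was 0.04 (95% interval -0.15 to 0.23). In the other experiment the difference of Sp5 in EMM at P20 was -3.34.

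Notum had 615, 547 and 638 normalised counts in Serum/LIF and 378, 532 and 498.5 at 24 h. All the 24 h libraries were lower, and the log2 fold change of -0.35 ± 0.13 had an adjusted p of 0.0259. From 3 to 9 h it fell by 0.46 on the log2 scale (adjusted p = 0.00742), which did not pass with library totals alone (0.0143) or without any of 5 libraries (0.0197 to 0.0408). Nkd1 was at 71.4, 54.3 and 97.4 in Serum/LIF and 48.4, 51.2 and 50.1 at 3 h. Its largest difference, -0.56 at 3 h (95% interval -0.96 to -0.17), had an adjusted p of 0.0207, and by 24 h the difference was -0.14 (95% interval -0.52 to 0.24). T was at 466, 457 and 401 in Serum/LIF, 373, 409 and 395 at 3 h, 447, 492 and 477 at 9 h, and 292, 266 and 257 at 24 h.

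**Figure D4:**
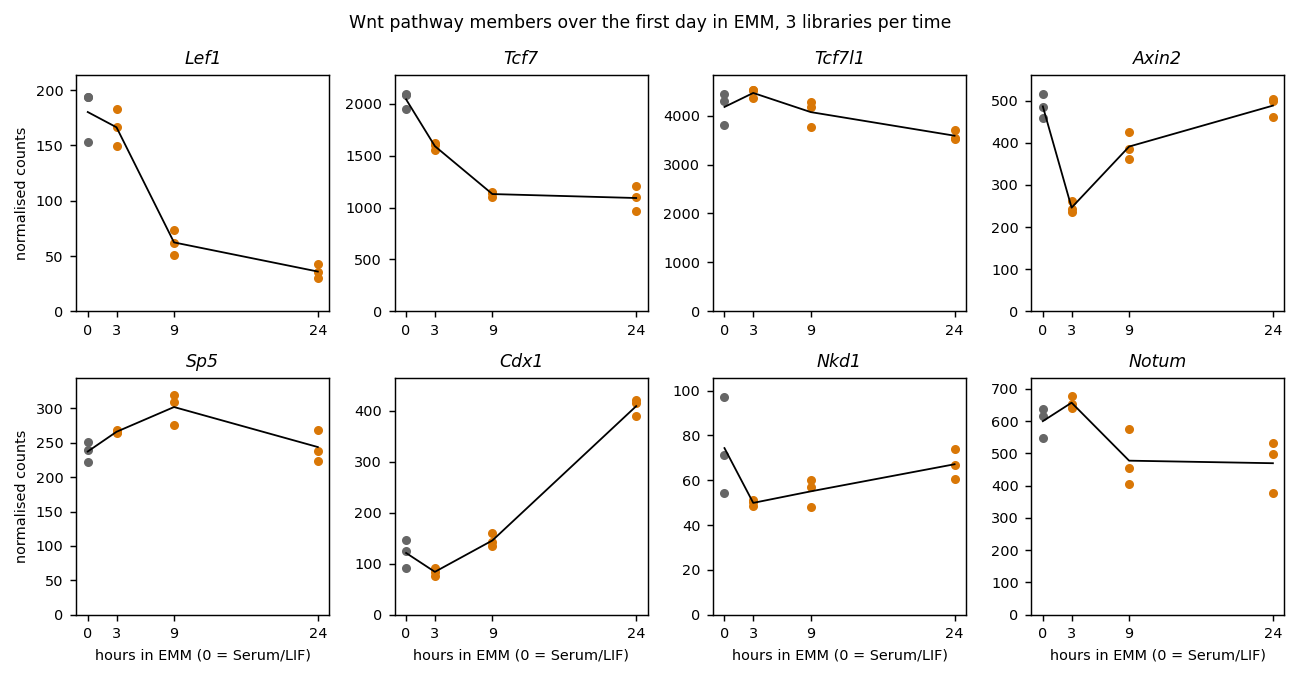
Normalised counts of the 8 genes in Serum/LIF (0 h) and at 3, 9 and 24 h of EMM culture, with 3 dots per time for the libraries and a line through their means. Axin2 dips at 3 h (235 to 261) and is back at 461 to 504 by 24 h, Lef1 falls to 29.8 to 42.5 and Cdx1 climbs to 391 to 421.5 at 24 h.

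The rest of the pathway was read from 8 lists of 98 genes by role. Of the 83 with enough counts in the passage table, 30 rose, 30 fell and 23 did not pass in P10 2i/LIF against Serum/LIF, and 17 rose, 31 fell and 35 did not pass at P20. In EMM against Serum/LIF the numbers were 15, 34 and 34 at P10 and 10, 27 and 46 at P20. Genes that passed made up 52% of all genes in P10 2i/LIF (26.4% higher and 25.6% lower), 44.2% in P20 2i/LIF (21% and 23.2%), 37.4% in P10 EMM (18.7% and 18.7%) and 26% in P20 EMM (13.6% and 12.5%), each against Serum/LIF.

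Of 19 Wnt ligand genes, 13 had enough counts in some group to be tested. Among these, 10 fell and 2 rose in P10 2i/LIF, 8 fell and 2 rose in P20 2i/LIF, and 10 fell and none rose in EMM at P10 and again at P20. A gene at the floor in 2i/LIF or EMM could enter the test only through groups where it was higher, so such counts are descriptions of the tested genes alone. Of the 13, 5 were at the floor in 2i/LIF at each passage, 3 in P10 EMM and 1 in P20 EMM. Of the ligands not at the floor, 5 of 8 fell and 2 rose in P10 2i/LIF, 3 of 8 fell and 2 rose in P20 2i/LIF, 8 of 10 fell in P10 EMM and 9 of 12 fell in P20 EMM. Over all 13 ligands tested, the median log2 fold change was -2.69 in P10 2i/LIF and -2.41 in P10 EMM, with ligands at the floor set at their bounds. Wnt4 was at 0 in P10 2i/LIF against 162 ± 21.2 normalised counts in Serum/LIF, at least 42.2-fold lower. Wnt8a was at 0 in P20 2i/LIF against 42.0 ± 3.72, at least 10.4-fold lower. Wnt11 went the other way, at 33.8 ± 13.2 in P10 2i/LIF and 6.97 ± 3.65 in Serum/LIF (2.24 on the log2 scale, adjusted p = 0.000519). Porcn, the acyltransferase that Wnt ligands need for secretion, fell to 37.5 ± 10.2 in P20 2i/LIF from 459 ± 42.5 in Serum/LIF (-3.64, adjusted p = 3.49e-12).

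Receptor genes and the R-spondin system split, with 5 higher and 11 lower of 21 in P10 2i/LIF. Fzd10, a Frizzled receptor gene, rose from 234 ± 81.4 to 1495 ± 137 (2.67, adjusted p = 7.13e-10), and at P20 by 1.98 (adjusted p = 3.22e-08). Of 8 secreted antagonists tested, 3 rose and 3 fell in P10 2i/LIF, 2 rose and 3 fell in P20 2i/LIF, and 2 rose and 1 fell in P10 EMM. Their fitted median was -0.85 in P10 2i/LIF and -0.41 in P20 2i/LIF. With genes at the floor set at their bounds, or at 0 where no bound could be given, the medians were -0.71 and 0.11, so the sign at P20 depends on that choice. Sfrp1 rose in P10 2i/LIF (2.27, adjusted p = 1.59e-10) and in P10 EMM (2.28), while Sfrp5, at the floor in 2i/LIF, was at least 4.3-fold lower there at P10 and at least 9.28-fold lower at P20 than in Serum/LIF. Of the 14 transducers and destruction complex genes, 8 rose and 1 fell in P10 2i/LIF, and 2 rose and 2 fell at P20. Apc2, a relative of the destruction complex scaffold Apc, fell in 2i/LIF at P10 (-2.02) and P20 (-2.79) and in P10 EMM (-1.96). Dvl3 of the Dishevelled family was up by 1.21 at P10 (adjusted p = 7e-08), and Gsk3b, which encodes the inhibited kinase, by 0.72 at P20 (adjusted p = 1.91e-06).

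Nuclear partners gave 4 higher and 2 lower of 10 in P10 2i/LIF. Tle2 of the Groucho family of corepressors rose by 1.97 there, and Ctnnbip1, which blocks the binding of β-catenin to TCF, fell by 0.87 on the log2 scale (adjusted p = 5.83e-05). In EMM the list gave 1 higher, Tle4, and 3 lower at each passage, with Tle4 at 0.66 at P10 and 0.48 at P20.

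Other target and feedback genes, outside the 8, were counted in the same way. In P10 2i/LIF 8 of 14 rose and 3 fell, with a median of 0.86, and in P20 2i/LIF 3 rose and 5 fell, with a median of -0.18. Sp8, a relative of Sp5, rose from 8.48 ± 3.86 to 78.4 ± 18.6 at P10 (3.19, adjusted p = 1.09e-06). Nkd2, a relative of Nkd1, fell from 86.8 ± 4.18 to 6.59 ± 3.85 (-3.57, adjusted p = 3.42e-06). In P10 EMM 3 rose and 6 fell, with T at -7.14 (adjusted p = 4.03e-09), and in P20 EMM 1 rose and 4 fell. The 6 genes known to be restrained by TCF7L1 in ESCs, all of them pluripotency factors, gave 4 higher and none lower in P10 2i/LIF, 5 higher and none lower in P10 EMM, and 4 higher and 2 lower at 3 h, 4 higher and 1 lower at 9 h and 4 higher and none lower at 24 h after the move to EMM. Of all genes tested, 16.3% passed higher and 18.2% lower at 3 h, 18.5% and 19.7% at 9 h and 21.8% and 22.2% at 24 h. Tfcp2l1 was higher in P10 2i/LIF, P10 EMM and at 24 h, at 2.12 (adjusted p = 6.14e-12), 1.31 and 1.08. At P20 the list gave 3 higher and 1 lower in 2i/LIF, where Nr0b1 fell by 2.04 on the log2 scale (adjusted p = 2.48e-11), and 1 lower of 6 in EMM, Nanog, at -1.11.

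After 24 h in EMM, 8 of 13 ligand genes rose and 2 fell, with a median of 0.97, while none had risen in EMM at P10 or P20 of the other experiment. The difference between the experiments was not tested. Wnt7a rose from 42.8 ± 5.96 to 148 ± 8.3 normalised counts (1.80, adjusted p = 1.75e-08). Wls, the carrier that takes Wnt ligands to the cell surface, was higher by 1.10 (adjusted p = 1.38e-09), whereas in P10 EMM it was lower by 1.31 (-1.31, adjusted p = 0.000279). Of the 15 other target and feedback genes tested in the time course, 7 fell and 1 rose at 24 h, where 44% of all genes passed. The lists share 6 genes, which were counted in each list that holds them.

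**Figure D5:**
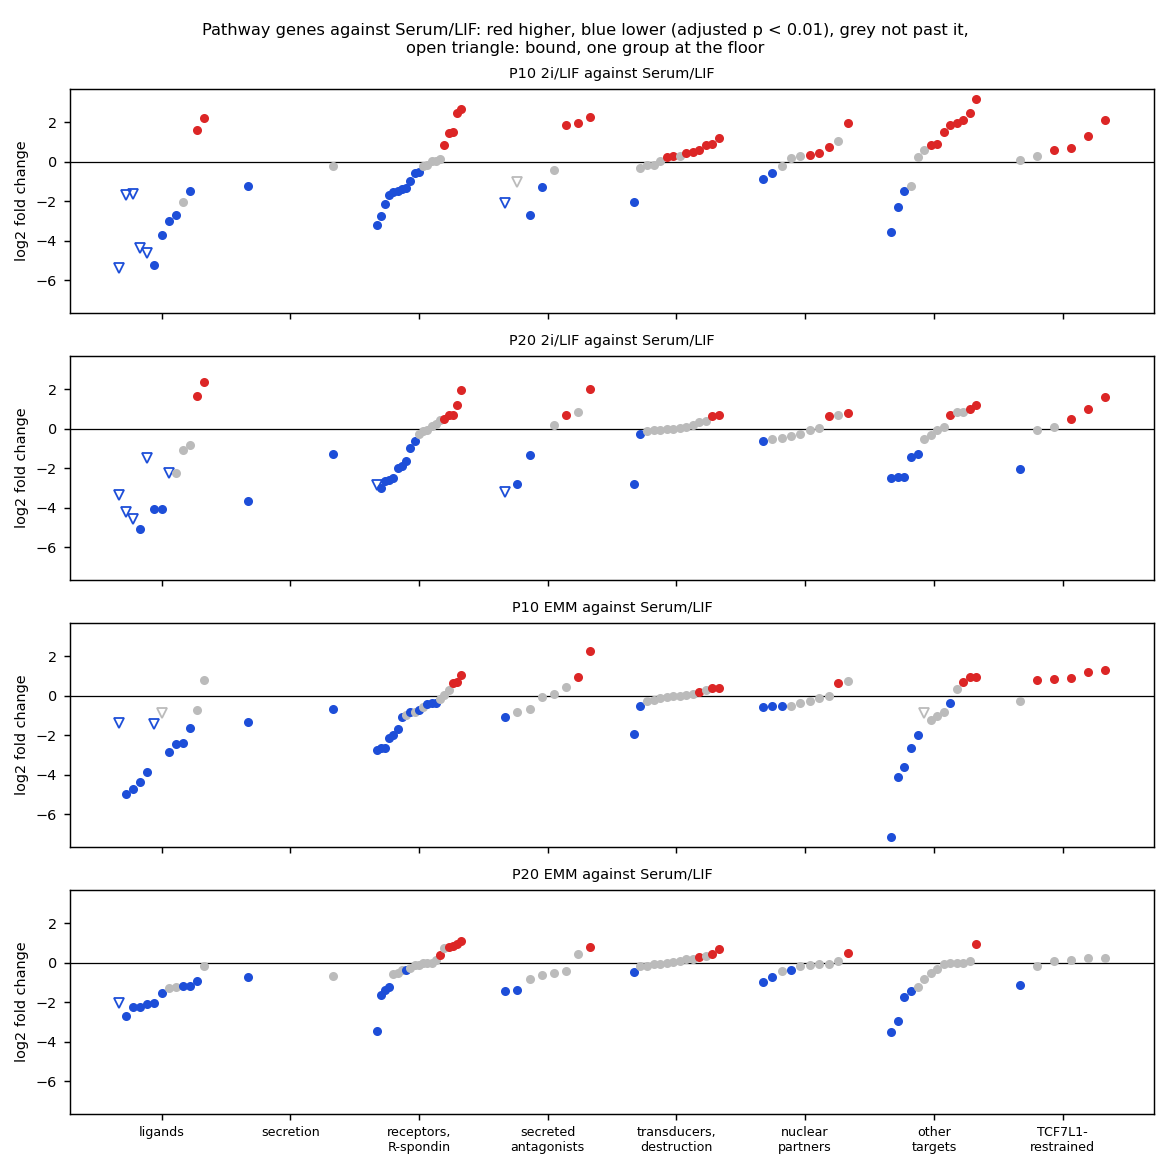
Log2 fold change of every tested gene of the 8 pathway lists in 2i/LIF and EMM against Serum/LIF at P10 and P20, with red for genes that rose, blue for genes that fell and grey for genes that did not pass. Triangles are bounds for genes at the floor in 1 group, and Frzb in P20 2i/LIF, at the floor with no bound, is not drawn. Of the 13 ligand genes tested, 10 fell in P10 2i/LIF and in EMM at both passages, some of them at the floor there.

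Across the 18 passage libraries, which differ in medium and passage together, the log2 levels of Axin2 ran with those of Cdx1 (Pearson r = 0.92) and Sp5 (0.89), and Sp5 with Tcf7 (0.89), while Lef1 and Axin2 had an r of -0.06. In the 12 time-course libraries Lef1 ran with Tcf7 (0.92) and against Cdx1 (-0.87), and Axin2 and Sp5 had an r of -0.32. Of all genes with a mean CPM above 5, the 5 whose levels over the 18 libraries were most like Axin2 were Cdkn1a (0.989), Tmem43 (0.981), Grsf1 (0.979), 2510009E07Rik (0.977) and S1pr1 (0.977). Those most like Lef1 were Fbxl20 (0.955), Rfx3 (0.951), Lefty1 (0.944), Cep95 (0.942) and Cog6 (0.941). Over the 12 time-course libraries those most like Axin2 were Ngrn (0.981), Snn (0.975), Smpd2 (0.974), Zfp444 (0.973) and Mgat3 (0.971), none of them shared with its list from the passage libraries. These values are descriptions of libraries that share media, and nothing is drawn from them.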

How the data were processed

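RNA-seq was measured in 30 libraries of E14tg2a ESCs. Per the labels, the processing notes name STAR, featureCounts and DESeq2 for the time course and STAR, Salmon and DESeq2 for the passage experiment, on build mm10. The deposited time-course values were raw counts per gene, and the deposited passage values were estimated counts, of which 9.98% were not whole and were rounded. Library strand was stated for the passage kit alone. The members and gene lists were chosen with earlier results of these data known.

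Each table was fitted whole in edgeR 4.0.16 (R 4.3.3): filterByExpr by group, TMM scaling, 1 quasi-likelihood model per experiment over all its groups without covariates, and Benjamini-Hochberg adjustment over all genes tested (16054 in the passage table and 16049 in the time course). Calls needed an adjusted p under 0.01 and an absolute log2 fold change over 1. Standard errors and 95% intervals came from the same fit. A group with at most 3 counts in every library was given as a bound, 3 counts per library. Depth set precision: totals ran from 6944904 to 35301962 counts. Levels per length used union exons of GENCODE on GRCm38 and effective library sizes. Promoter windows came from RefSeq on GRCm38.p6. The Notum window was not in that table and the Cdx1 window was not used here. Named pathway genes were those with the largest passed change up and down in each list and comparison. No pair of libraries of 1 group was a duplicate (chi-square per degree of freedom 2.33 to 70.4). Scripts were tested on simulated data. Alternatives were DESeq2 1.42.0 and its size factors, library totals alone, other count filters and thresholds, a replicate block, scaling without chromosomes 6 and 8, the compared groups alone, and leaving out each library. Libraries of the same replicate number correlated at 0.134 or more throughout, in their deviations from the group means, only between P10 and P20 of 2i/LIF (0.134 to 0.299). Replicate 1 had the lowest mitochondrial share of its 2i/LIF group at both passages, and the part of this in the correlation was not tested.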

Additional observations from a re-analysis of the deposited data

Results flagged for a closer look

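For 9 gene and medium pairs the response to a medium differed between P20 and P10 in the interaction test (edgeR, adjusted p under 0.01). The difference passed for 5 of 8 genes in EMM against Serum/LIF, where 14.7% of all genes passed. It passed for 4 of 8 genes in 2i/LIF against Serum/LIF, where 20% of all genes passed. In 2i/LIF against Serum/LIF these were Lef1, with a difference of log2 fold changes (P20 minus P10) of -3.72 (95% interval -4.20 to -3.24), Cdx1 with -2.35 (-3.04 to -1.66), Notum with -2.12 (-2.59 to -1.65) and Axin2 with -1.59 (-2.11 to -1.07). All 4 were lower at P20, and Lef1 was higher than Serum/LIF at P10 and lower at P20 in every library. In EMM against Serum/LIF the differences were 1.88 for Lef1 (1.42 to 2.33), 1.34 for Tcf7 (0.83 to 1.85), 3.80 for Sp5 (1.80 to 5.79), -2.87 for Cdx1 (-3.77 to -1.98) and -1.69 for Notum (-2.16 to -1.22). The Sp5 value rests on P10 EMM libraries at or under 3 counts, and it did not pass without replicate 3 of P10 EMM (3.50, adjusted p = 0.0192).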

How the results depend on the processing

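Of the counts of called genes under every alternative, 246 kept within 1.5 times of the reported count and 18 did not. Of the single fold changes, 1719 kept direction and side of the adjusted p threshold, 30 gained a pass, 66 lost one and 24 changed sign. A call gained or lost by the fold threshold alone does not enter these numbers, nor does a gene that a count filter took out. With no fold threshold, 5 genes were called in P20 2i/LIF against Serum/LIF, where 44.2% of all genes were. In the time course the numbers were 3 at 3 h, 4 at 9 h and 4 at 24 h, where 34.5%, 38.2% and 44% of all genes passed. They were 5 from 3 to 9 h and 3 from 9 to 24 h, where 26.5% and 13% of all genes passed. Requiring at least 10 counts in every library took Sp5, Cdx1 and Nkd1 out of the passage test. It left 2 calls in P10 2i/LIF against Serum/LIF, 3 in P10 2i/LIF against EMM, 1 in P20 EMM against Serum/LIF, 3 in P20 against P10 in 2i/LIF, 0 in P20 against P10 in Serum/LIF and 3 passed interactions for EMM. P20 against P10 in Serum/LIF gave 2 calls with no count filter and 2 at an adjusted p under 0.05. Library totals alone gave 1 call at 3 h, and moved the median of all genes by -0.118 in P20 2i/LIF against Serum/LIF. Leaving out 1 library gave 0 to 1 calls at 3 h (Axin2) and 1 to 2 in P20 against P10 in Serum/LIF (Sp5, without replicate 3 of P10). The cause of these changes was not tested beyond the genes removed.

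The sign changes were all of differences that did not pass. Axin2 at 24 h was -0.0079 with library totals alone. Axin2 in P20 against P10 in EMM was -0.011 when scaled without chromosomes 6 and 8 and -0.014 with the compared groups alone. Leaving out 1 library gave ranges of -0.020 to 0.061 for Axin2 at 24 h, -0.12 to 0.094 for Axin2 in P20 against P10 in EMM, -0.32 to 0.12 for Nkd1 at 24 h, -0.094 to 0.018 for Nkd1 in P20 EMM, -0.13 to 0.12 for Notum and -0.13 to 0.029 for Tcf7 from 9 to 24 h, -0.023 to 0.11 for Sp5 at 24 h, and, for Tcf7l1, -0.087 to 0.033 at 9 h, -0.15 to 0.11 in P10 2i/LIF against EMM, -0.20 to 0.059 in P10 2i/LIF and -0.18 to 0.022 in P10 EMM against Serum/LIF.

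With the replicate number as a block, 4 genes were called in P10 2i/LIF against Serum/LIF, 3 at P20 and 5 in P20 against P10 in 2i/LIF, as without the block, and it moved no other count of calls. The block was shared by all groups of an experiment, so pairing within 2i/LIF alone was not tested. Blocking the time course by the number in the sample descriptions, which differs from that in the titles, gave 0.0075 for Lef1 at 3 h and 0.038 for Tcf7l1 at 9 h. It also ended the passes of Tcf7l1 at 24 h (-0.14, adjusted p = 0.0387) and of Axin2 at 9 h (-0.27, adjusted p = 0.0222).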
